A study of Mus musculus with 39 samples.

Results

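The comparison described here sets whole testes of F1 males, which descend from males whose germ cells lost Kdm6a, against whole testes of control males. Its members are 7 of the 39 samples of the series, 3 F1 libraries and the control libraries numbered 1 to 4, chosen because all 7 were quantified on the same 118489 transcripts. The F1 males carried the genotype Kdm6a fl/y; Cre- and are labelled F1 of cKO. The controls carried Kdm6a fl/y; Cre- as well, so both groups have the floxed allele without the recombinase, and the labels set them apart by descent alone. The F2 males (4 libraries, same transcript set) had this genotype too and are labelled F2 of cKO. The cKO males (3 libraries) carried Kdm6a fl/y; Ddx4-Cre+, in which the promoter of the germ-cell gene Ddx4 drives the recombinase. They and controls 5 to 7 were quantified on another set of 117486 transcripts, and serve only to show where a level lies in further testes.

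KDM6A, also called UTX, is an enzyme that removes methyl groups from histone H3 at a position where methylation keeps genes silent, and it works in part within complexes that mark active enhancers. Its gene lies on the X chromosome. A son receives his X chromosome from his mother and his Y chromosome from his father, so a Kdm6a allele deleted in a father's germ line does not pass to his sons. The title of the series names gene expression across generations, and the comparison of F1 with control testis asks whether RNA levels in the testis of such descendants differ from those of controls.

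RNA with polyA tails was taken from testes dissociated with collagenase and trypsin into a filtered cell suspension, and sequenced as read pairs of 100 bp. Estimated counts summed to between 21794000 and 28477800 per control library and between 27405100 and 30236800 per F1 library. The labels give no age, litter, batch or date, and do not say whether libraries of a group came from separate animals, so p-values measure the spread between these samples, which may be technical. The files name transcripts by Ensembl identifier and do not pair them with genes, so no transcript below has a gene name or a known role, and Kdm6a and the markers of testis cell types were not analysed here. The quantifier divides reads between transcripts that share sequence, so the level of a single transcript can move when reads are assigned differently among isoforms. In a whole organ, fewer cells of a type and less RNA per cell cannot be told apart.

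Over the whole transcriptome the F1 testes lay as close to the control testes as the control testes lay to each other. Computed over 55953 transcripts (which do not count as replicates), the correlation r of log2 levels between a control and an F1 library was 0.971 to 0.975 in the 12 pairs. The 6 pairs of controls gave 0.971 to 0.975, and the 3 pairs of F1 libraries 0.974 to 0.976. The first principal component, with 19% of the variance, set control 1 apart at −68.4 from the 6 other libraries, which lay between −0.906 and 31.6. The second, with 17.8%, placed the controls between −42.5 and 2.95 and the F1 libraries between 22.0 and 35.6, so that the groups did not overlap on it. Over a subset of 19373 transcripts, the median coefficient of variation among libraries of a group was 9.13% in controls and 8.68% in F1.

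No measure of library make-up differed between the groups beyond the spread of the libraries. There were 9 such measures, each put to an exact permutation test (two-sided, 35 arrangements, smallest possible p 0.0286). The p-values ran from 0.171 to 0.943, or 0.6 and above after Benjamini-Hochberg adjustment. At least 1 estimated count was found for 77501 ± 1287 transcripts in controls (SD, n = 4) and 78711 ± 182 in F1 (SD, n = 3). With libraries thinned to 21793500 counts these were 76669 ± 673 and 77195 ± 338 (exact permutation p = 0.314). At least 1 TPM was found for 44033 ± 246 and 44013 ± 1160. The 10 most abundant transcripts held 3.66% ± 0.183 of the counts in controls and 3.56% ± 0.133 in F1. Transcripts under 1000 bases held 12.0% ± 0.168 and 12.1% ± 0.163.

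Few or no transcripts were called between F1 and control testis, and their number depended on the tool and on single libraries. With edgeR's quasi-likelihood test and Benjamini-Hochberg adjustment, 0 of 55953 transcripts (0%) passed an adjusted p of 0.05, and the smallest adjusted p was 0.414. The number was 1 without control 1, 2 without control 2, 3 without control 4, 1 without any 1 of the F1 libraries, and 1 with F2 or with all 7 controls in the fit. At an unadjusted p under 0.05 there were 2476, or 4.43%, of which 1192 (2.13%) were higher and 1284 (2.29%) lower in F1. DESeq2, run on the same counts, called 166 of the 68191 transcripts it gave an adjusted p (0.243%), 75 higher (0.11%) and 91 lower (0.133%) in F1. Counts were also simulated from edgeR's own fit of these libraries, with changes only in transcripts of at least 5 CPM. On them DESeq2 made many more false calls than edgeR and recovered more of the changed transcripts. Built on edgeR's fit, they do not show how many of the 166 are false, which was not tested. Limma on log2(TPM + 0.5) called 4. Levels in CPM, the counts scaled to the library size, of F1 and control libraries did not overlap for 3469 transcripts (6.2%), with 1785 (3.19%) higher and 1684 (3.01%) lower in F1. The median log2 fold change over all transcripts tested was 0.00.

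**Figure D1:**
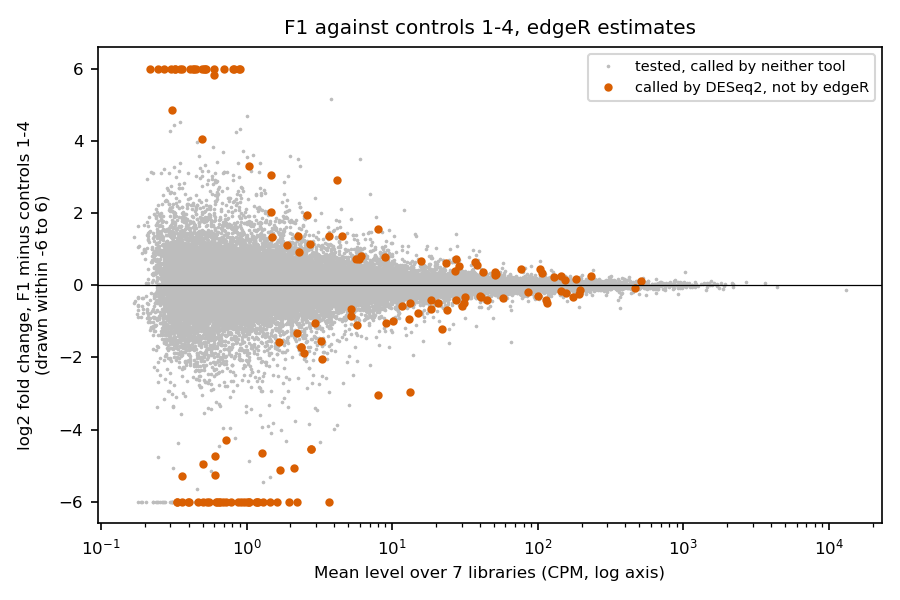
Log2 fold change of F1 over controls 1 to 4 by edgeR (vertical axis, drawn within -6 to 6) against the mean level over 7 libraries (CPM, log axis), 1 point for each of 55953 transcripts. Orange points are those called by DESeq2 and not by edgeR; the spread narrows from left to right and stays centred on 0.

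Intervals of the edgeR fold change were narrow for well-expressed transcripts and wide for the rest. At a mean level of 100 CPM or more there were 2017 transcripts, and the 95% interval of the log2 fold change lay within a 2-fold change in either direction for 2013 of them (99.8%). None of these 2017 had an estimate past 2-fold, and the middle 90% of the estimates ran from −0.13 to 0.14 on the log2 scale. Between 20 and 100 CPM the share with such an interval was 98.4% of 6711, between 5 and 20 CPM 90.4% of 10570, and between 1 and 5 CPM 62.9% of 19204. Under 1 CPM it was 13.99% of 17451, and the median standard error there was 0.50 on the log2 scale. These intervals are not adjusted for the number of transcripts, so they do not show which differences the adjusted test could call. A transcript at a mean of 29.1 CPM in controls, with a 2.31-fold difference, had an edgeR adjusted p of 0.414. Over all levels the interval lay within 2-fold for 32686 transcripts, or 58.4%.

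**Figure D2:**
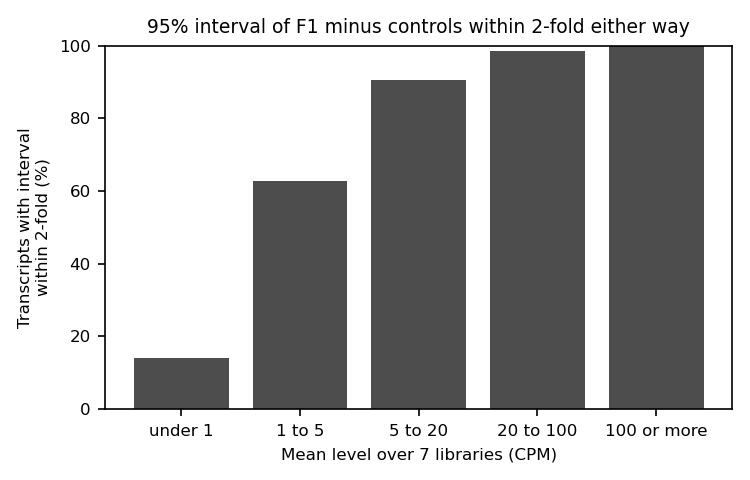
Percent of transcripts whose 95% interval of F1 minus controls lay within a 2-fold change either way (vertical axis), by mean level over 7 libraries in CPM (horizontal axis). Bars rise from 13.99% under 1 CPM to 99.8% at 100 CPM or more.

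The median difference between the groups changed little with transcript length. Among transcripts with a mean of at least 5 CPM, the median log2 fold change was 0.00 for 2807 transcripts under 1000 bases and −0.02 for 3106 of 5000 bases or more. The first of these classes had quartiles of −0.09 and 0.08, and the second of −0.10 and 0.07. Single F1 libraries deviated to opposite sides in the first class, F1 2 at −0.052 and F1 3 at 0.050, with F1 1 at 0.007. The controls lay between −0.015 and 0.022 there.

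The most abundant RNAs of the testis differed little in level between the groups. For the 10 transcripts with the highest mean, log2 fold changes ran from −0.15 to 0.08, 5 of them above 0 and 5 below, and all 10 intervals lay between −0.44 and 0.22. The first of them, of 3756 bases, was at 12152, 12323, 14163 and 16442 CPM in the controls and at 10808, 12562 and 13953 CPM in F1. Its groups overlapped, with means of 13770 ± 2000 (SD, n = 4) and 12441 ± 1576 (SD, n = 3). The fourth, of 2817 bases, had means of 2651 ± 37.9 and 2804 ± 45.2 CPM with no overlap of the groups, a log2 difference of 0.08 (SE 0.03, edgeR adjusted p = 0.999). The tenth, of 10970 bases, was the other one of the 10 whose groups did not overlap. Its log2 difference was −0.11 (SE 0.04, 95% interval −0.20 to −0.01, edgeR adjusted p = 0.999). Both intervals exclude 0 and are not adjusted for the number of transcripts. Groups did not overlap at 6.2% of all transcripts tested, and at 7.49% of those at 100 CPM or more.

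Since no transcript passed the edgeR test, those with the lowest p were described by a rule: a mean of at least 5 CPM, a log2 difference of at least 0.58 in size, and levels that do not overlap between the groups. Of 19298 transcripts with such a mean, 122 met it, 60 higher and 62 lower in F1, and the 12 with the lowest p in each direction were examined. The values that chose them are given as a description. The 12 higher ones were 1.5 to 1.75 times the control level in F1, with edgeR adjusted p of 0.512 to 0.999, and DESeq2 called 8 of them. The 12 lower ones differed by 1.5 to 2.31 times, with edgeR adjusted p of 0.414 to 0.999, and DESeq2 called 11. Over all transcripts DESeq2 called 0.243%. Its calls here rest on the same counts that chose these transcripts, so they are no separate support. As the files do not pair identifiers with genes, 2 of each direction are given by identifier.

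The transcript ENSMUST00000166086.2, of 1278 bases, was at 7.25, 6.65, 7.45 and 6.10 CPM in controls 1 to 4 and at 12.3, 12.6 and 10.5 CPM in the F1 libraries. Every F1 library was above every one of these controls. The means were 6.86 ± 0.611 (SD, n = 4) and 11.8 ± 1.14 CPM (SD, n = 3), and the log2 difference was 0.79 (SE 0.12, 95% interval 0.51 to 1.06, edgeR adjusted p = 0.512, DESeq2 adjusted p = 0.000146).

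The transcript ENSMUST00000106406.8, of 4663 bases, was at 11.1, 13.2, 11.9 and 14.3 CPM in the controls and at 21.2, 20.6 and 18.9 CPM in F1. The F1 mean of 20.2 ± 1.19 CPM was 1.60 times the control mean of 12.6 ± 1.38 CPM, a log2 difference of 0.68 (SE 0.10, edgeR adjusted p = 0.512, DESeq2 adjusted p = 0.000109). Its level in F2 was also above the control level, by 0.57 on the log2 scale, and F1 exceeded F2 by 0.11 (edgeR adjusted p = 1).

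The transcript ENSMUST00000114965.1, of 1458 bases, had the largest difference among the 24. It was at 25.5, 34.2, 26.95 and 29.7 CPM in the controls and at 13.97, 13.8 and 9.96 CPM in F1, so the lowest control was well above the highest F1 library. The means were 29.1 ± 3.81 and 12.6 ± 2.26 CPM, and the log2 difference was −1.21 (SE 0.15, 95% interval −1.57 to −0.85, edgeR adjusted p = 0.414, DESeq2 adjusted p = 1.68e-08).

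The transcript ENSMUST00000109485.8, of 6709 bases, was at 18.8, 16.7, 17.4 and 19.8 CPM in the controls and at 9.01, 11.5 and 11.8 CPM in F1. Its means of 18.2 ± 1.38 and 10.7 ± 1.51 CPM came from groups that did not overlap, with a log2 difference of −0.76 (SE 0.12, edgeR adjusted p = 0.522, DESeq2 adjusted p = 0.000131).

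These differences were then looked up in libraries that the rule did not use. Levels in this paragraph are scaled over all 17 testis libraries, so they differ a little from those printed above. Controls 5 to 7 have the genotype of controls 1 to 4 but lie on the other transcript set, with which the way of processing cannot be told apart. For 8 of the 12 higher transcripts at least 1 of controls 5 to 7 was as high as the lowest F1 library or higher, and for 6 of the 12 lower transcripts at least 1 was as low as the highest F1 library or lower. Over all transcripts whose F1 and control 1 to 4 levels did not overlap and that were measured in both sets, the shares were 57.7% of 1743 higher and 58.7% of 1651 lower ones. For ENSMUST00000114965.1, controls 5, 6 and 7 were at 11.0, 29.2 and 10.2 CPM, so that 2 of the 3 lay within the F1 range and 1 within the range of controls 1 to 4. The 3 cKO testes were at 13.3, 25.6 and 30.7 CPM for that transcript. ENSMUST00000109485.8 went the other way, with 28.8, 42.2 and 38.0 CPM in controls 5 to 7, all above controls 1 to 4. For ENSMUST00000166086.2 controls 5 to 7 were at 10.7, 7.65 and 11.5 CPM, and for ENSMUST00000106406.8 at 19.9, 15.4 and 14.8 CPM.

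**Figure D3:**
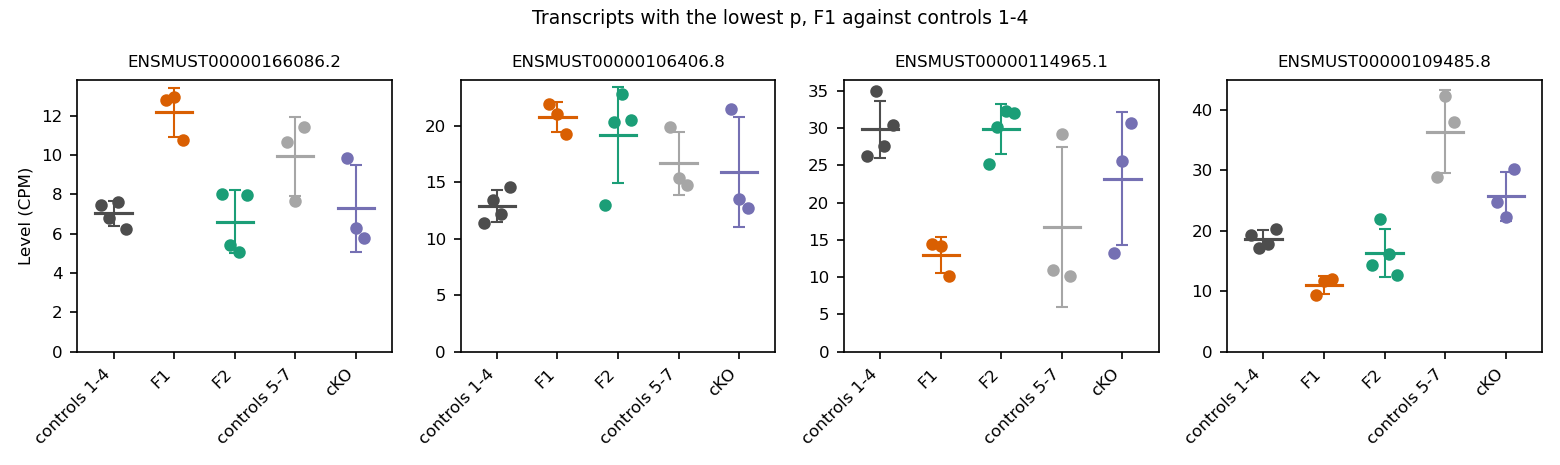
Level in CPM (vertical axis, scaled over all 17 testis libraries) of the 4 transcripts given by identifier, 1 panel each, in controls 1 to 4, F1, F2, controls 5 to 7 and cKO. Points are libraries, and bars give the mean and SD. F1 lies apart from controls 1 to 4 in every panel, while controls 5 to 7 reach the F1 range for ENSMUST00000166086.2, ENSMUST00000106406.8 and ENSMUST00000114965.1.

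In the F2 testes, at least 1 library reached the F1 range for 10 of the 12 higher transcripts, and every F2 library did for 0. The F1 estimate was above F2 for all 12, and edgeR called no difference between F1 and F2. Among the 12 lower ones at least 1 F2 library reached the F1 range for 4, and every F2 library did for 0. F1 was below F2 for 11 of them, and F1 and F2 differed by edgeR in 1. The F1 levels chose these transcripts, so this is a description. Over all transcripts of both transcript sets whose F1 and control 1 to 4 levels did not overlap, F2 levels that reached the F1 range were found for 1313 of 1743 higher and 1305 of 1651 lower ones. Every F2 library reached it for 122 of the higher and 142 of the lower ones. The comparisons of F1 and of F2 with controls share the control libraries.

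The 166 DESeq2 calls included scarce and well-expressed transcripts. They held all 13 transcripts near 0 in F1 and all 25 near 0 in controls that are described in the next paragraph. Of these, 145 were among the transcripts edgeR tested, all with the same sign and an unadjusted p under 0.05, and with edgeR adjusted p of 0.414 to 0.999. A mean under 1 CPM was found for 49 of the 145 and one of at least 5 CPM for 59, beside 17451 and 19298 of all 55953 tested. DESeq2's own estimate was 2-fold or more for 113 of the 166, while edgeR's was past 2-fold for 5.15% of all 55953.

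Transcripts near 0 in 1 group and present in every library of the other were counted over the whole set. Under 3 estimated counts in every F1 library and at least 10 in each of controls 1 to 4 were found, with counts rounded to whole numbers, for 13 of the 118489 transcripts, and the reverse for 25. Leaving out any 1 of the 7 libraries raised these numbers to between 30 and 62 and between 53 and 80. Where present they held 10 to 219 counts in a control library, with a median of 21.5, and 10 to 115 in an F1 library, with a median of 27. These 38 were chosen by the counts of the 7 libraries, so a test of F1 against controls on those counts is no separate support for any of them. With the same thresholds, 7 transcripts were near 0 in every F2 library and present in controls, and 4 the reverse. F2 has 4 libraries and F1 has 3, and a rule over every library finds fewer transcripts with more libraries, so these numbers are not like for like.

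Single libraries of 1 group also differed between near 0 and present. Of the 55953 transcripts tested, 5366 (9.59%) held under 3 counts in at least 1 and 10 or more in at least 1 other of controls 1 to 4, and 3834 (6.85%) did so among the 3 F1 libraries. This rule is looser than that behind the 13 and the 25, which sets a state for every library and was counted over the whole set. These shares are therefore not like for like with the 13 and the 25, and do not show how many of those arise from spread within a group. In F2, 9 of the 13 transcripts near 0 in F1 were present in some libraries and near 0 in others, as were 21 of the 25 near 0 in controls. Among the 6 libraries of controls 5 to 7 and cKO as 1 set, which are of different genotypes, both states occurred for 12 of the 13 and 22 of the 25.

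One transcript of 2586 bases had 0 counts in each of controls 1 to 4 and 37, 115 and 27 in F1. Against a floor of 3 counts over the controls its F1 level was at least 70.8-fold higher. In F2 it held 0, 41, 0 and 0 counts, and in controls 5 to 7 it held 20, 0 and 56, so that libraries without it and with it occurred in both of these groups. One of 2924 bases held 216, 49, 158 and 219 counts in controls 1 to 4, 194, 156, 119 and 52 in F2, and 0, 0 and 1 in F1. The ratio of controls to F1, set by a single F1 count, was 541, with a 95% counting interval of 96.8 to 21407. Control 5 held 1 count of it and cKO 3 held 0, against 248 and 117 in controls 6 and 7 and 207 and 124 in cKO 1 and 2. All these intervals cover counting error only.

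**Figure D4:**
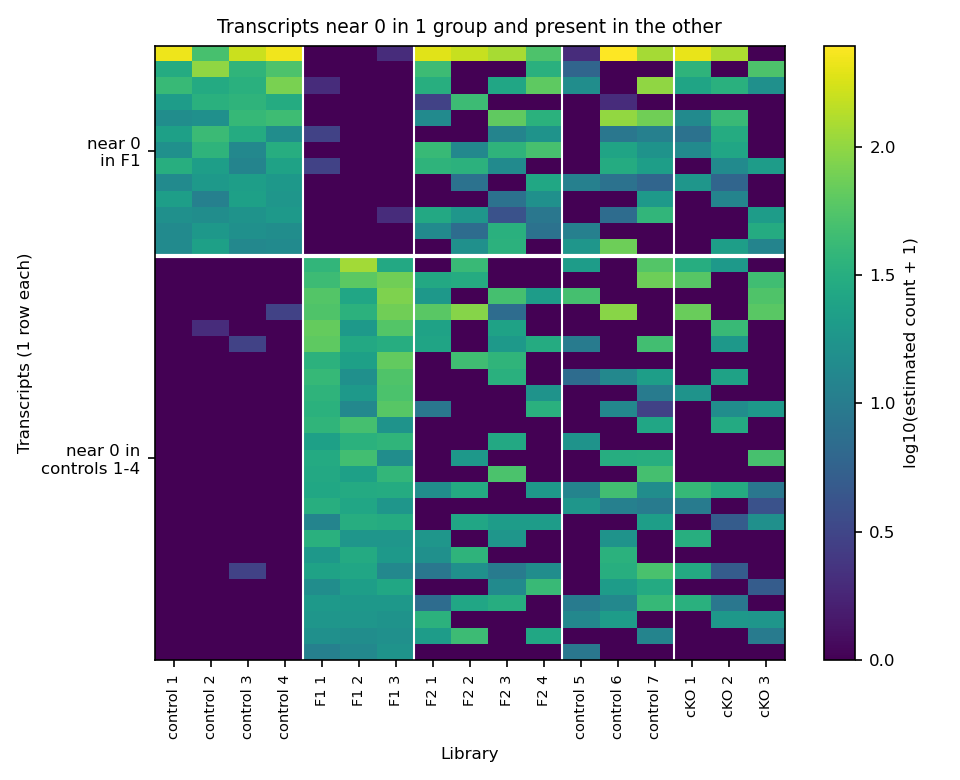
Estimated counts, as log10(count + 1) in colour, of the 13 transcripts near 0 in F1 (upper block) and the 25 near 0 in controls 1 to 4 (lower block), in all 17 testis libraries (columns). The F2 columns, and the control 5 to 7 and cKO columns as 1 set, show dark and bright cells mixed for most transcripts.

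F1 and F2 testes have the same genotype and transcript set and were compared within 1 fit. The labels give no batch or litter, so generation cannot be told apart from batch in this comparison. In the fit of 11 libraries edgeR called 16 of 59325 transcripts (0.027%), 10 higher (0.0169%) and 6 lower (0.0101%) in F1, and at an unadjusted p under 0.05 there were 3856 (6.5%). DESeq2 called 375 of 66510 (0.564%), 208 higher (0.313%) and 167 lower (0.251%), with all 16 among them. The F1 and F2 levels did not overlap at any of the 16, nor at 7.77% of all transcripts tested. For 11 of the 16 F1 overlapped controls 1 to 4 and F2 did not, for 4 F1 lay outside the controls and F2 overlapped them, and for 1 both lay outside. In the fit of F1 and controls 1 to 4 alone, F1 did not overlap the controls at 6.2% of transcripts. The like share for F2 was not taken, so the F2 counts have none to be set beside. The number of calls was 10 without F1 1, 64 without F1 3, 8 without F2 2, 4 without F2 3 and 8 without F2 4.

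The lowest p belonged to ENSMUST00000011895.13, of 8747 bases. It was at 65.1, 61.4 and 64.8 CPM in F1, at 56.8, 47.2, 63.4 and 60.8 CPM in controls 1 to 4, and at 16.1, 15.6, 15.3 and 15.0 CPM in F2. F1 was 4.12 times F2, a log2 difference of 2.04 (SE 0.09, edgeR adjusted p = 1.43e-05), while F1 exceeded the controls by 0.16 (SE 0.10, edgeR adjusted p = 0.999). Scaled over all 17 libraries, controls 5 to 7 were at 11.7 ± 0.699 CPM (SD, n = 3) and cKO at 13.7 ± 0.264 CPM (SD, n = 3). Both were near F2 and below every one of controls 1 to 4. A like arrangement was found at other calls where F2 lay apart. At the 4 where F2 overlapped controls 1 to 4 there is no F2 side, so it could not be looked for. In 11 of the 12 where F2 lay outside controls 1 to 4, all of controls 5 to 7 lay outside controls 1 to 4 on the F2 side, and so did all cKO libraries in 11. Over all 58185 transcripts that could be looked up, controls 5 to 7 lay wholly above or below controls 1 to 4 in 14.2% (above in 7.14%, below in 7.02%). The like share was not taken for cKO, so the cKO count has none to be set beside.

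The 4 transcripts at which F1 lay outside controls 1 to 4 while F2 overlapped them were called by edgeR in F1 against F2 and not in F1 against controls, where the edgeR adjusted p was 0.414 for each. DESeq2 called all 4 against controls too, and limma and the edgeR fit with F2 called the first of those below. EdgeR without control 2 called the third, of 2924 bases, at an adjusted p of 0.0359. These 4 were chosen by F1 levels outside controls 1 to 4, so calls against those controls are no separate support. Over all transcripts DESeq2 called 0.243% against controls. ENSMUST00000166114.1, of 700 bases, was lower in F1, at 0.0335, 0.108 and 0.0349 CPM, against 0.963, 1.24, 1.25 and 1.46 CPM in controls 1 to 4 and 1.41, 1.08, 1.17 and 1.19 CPM in F2. In counts this was 5 over the F1 libraries, 127 over the controls and 120 over F2. The ratio of controls to F1, scaled for library size, was 21.4 (95% counting interval 8.94 to 67.1), and that of F2 to F1 was 21.1 (8.80 to 66.2). F1 and F2 differed with an edgeR adjusted p of 0.00798. On the scale of all 17 libraries, controls 5 to 7 were at 0, 1.63 and 0.135 CPM and the cKO libraries at 0, 1.07 and 1.24 CPM. Single libraries of both groups were thus at or near 0.

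ENSMUST00000114965.1, described above, was at 24.7, 29.5, 31.7 and 31.4 CPM in F2, all above the F1 libraries. It was lower in F1 than in F2 by a log2 difference of −1.22 (SE 0.15, edgeR adjusted p = 0.0318). The third is the transcript of 2924 bases, which was near 0 in F1, with an edgeR adjusted p of 0.0319 against F2. The fourth, ENSMUST00000115245.7 of 3389 bases, is ninth by p among the 10 higher ones and was singled out after its values were seen. It was at 93.7, 84.1 and 92.7 CPM in F1, 67.4, 67.5, 63.9 and 68.3 CPM in controls 1 to 4, and 71.7, 63.0, 63.8 and 63.1 CPM in F2. F1 was 1.38 times F2, a log2 difference of 0.46 (SE 0.06, edgeR adjusted p = 0.0319), and exceeded controls 1 to 4 by 0.43 (SE 0.05, 95% interval 0.31 to 0.56, edgeR adjusted p = 0.414). On the scale of all 17 libraries, controls 5 to 7 were at 105.5, 80.6 and 115.7 CPM and cKO at 102.8, 75.2 and 79.7 CPM. All of these lay above controls 1 to 4. The edgeR calls of these last 3 against F2 did not hold without some of the 7 F1 and F2 libraries. That of ENSMUST00000114965.1 was lost without F1 1, F1 2, F2 2, F2 3 or F2 4, at an adjusted p of up to 0.116. That of the 2924-base transcript was lost without any F1 library, F2 1, F2 2 or F2 3, at up to 0.19. That of ENSMUST00000115245.7 was lost without F1 1, F1 3, F2 2, F2 3 or F2 4, at up to 0.129. With 1 library left out, the log2 difference ran from −1.30 to −1.07 for ENSMUST00000114965.1 and from 0.44 to 0.51 for ENSMUST00000115245.7. For the 2924-base transcript it ran from −10.1 to −7.85. At 3 of these 4 transcripts at least 1 of controls 5 to 7 reached the F1 level or passed it, and at all 4 at least 1 cKO library did. This was also frequent over all transcripts whose F1 and control 1 to 4 levels did not overlap. There at least 1 of controls 5 to 7 did so for 57.7% of 1743 higher and 58.7% of 1651 lower ones. At least 1 cKO library did for 1089 of the higher and 1096 of the lower ones.

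**Figure D5:**
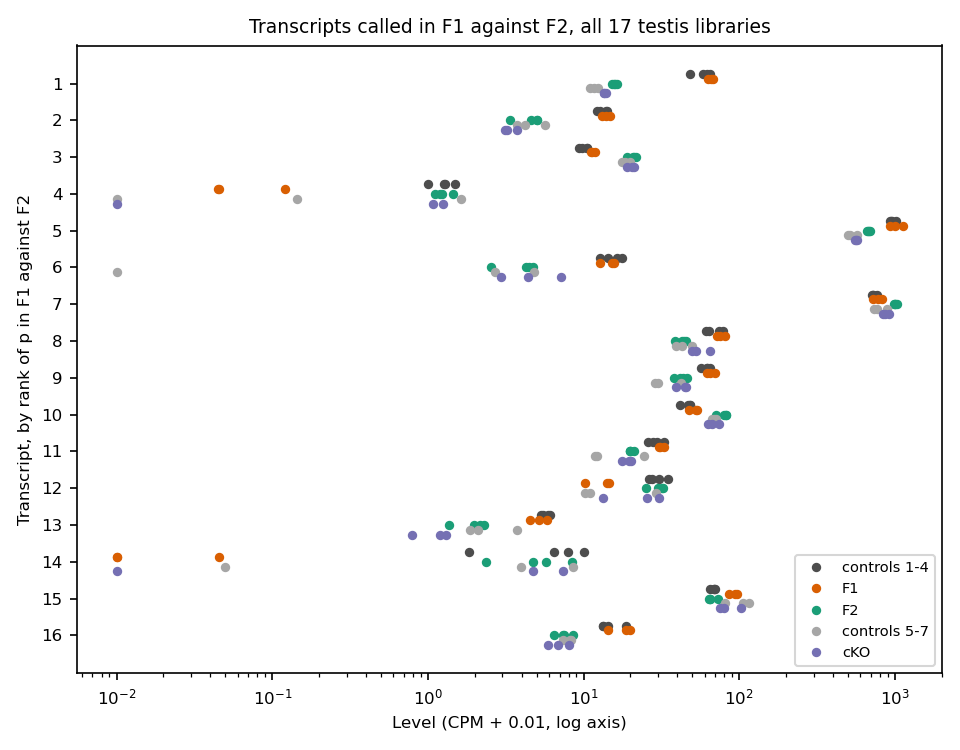
Levels (CPM + 0.01, log axis, scaled over all 17 testis libraries) of the 16 transcripts called between F1 and F2, in order of p from the top. Points are libraries; at rank 1 F1 and controls 1 to 4 lie together, as do F2, controls 5 to 7 and cKO, while at rank 12 F1 lies below controls 1 to 4 and F2.

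The F1 list was last set beside the cKO comparison, which was computed against controls 5 to 7 and therefore shares no library with F1 against controls 1 to 4. DESeq2 called 488 of 69730 transcripts there (0.7%). Of the 166 called in F1, 151 were tested in cKO, and 89 of them (58.9%) had the same sign, beside 54.8% of the 64355 transcripts tested in both. Both lists held 4 transcripts, which is 2.65% of the 151 F1 calls tested in cKO and 0.866% of the 462 cKO calls tested in F1, and all 4 had the same sign.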

How the data were processed

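For every transcript the table of a library holds, per the file headers, the length, the effective length, an estimated count and a TPM value. The deposited estimated counts are not normalized, and the deposited TPM are scaled by effective length and to a common total. The submitters' processing notes name kallisto 0.45.0, FastQC and the builds mm39 and mm10, with no role stated, and the index is not named in these sources. Groups came from the genotype labels. Members, lists and rules were chosen with earlier results of these data known.

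Counts were rounded and tested with edgeR 4.0.16 (R 4.3.3; TMM, filterByExpr, quasi-likelihood fit, Benjamini-Hochberg, adjusted p under 0.05). F1 and controls 1 to 4 were fitted alone, and F1 against F2 in a fit of 11 libraries with controls 1 to 4. Standard errors came from the test statistic. CPM use TMM library sizes, and levels set across the transcript sets rest on 115771 transcripts of the same ID and length in both, normalized together over 17 libraries. Transcripts are named by the rules given with the results: those called, the 12 per direction with the lowest p under the level, size and overlap criteria, the 10 most abundant, those near 0 in 1 group, and up to 8 per direction against F2. At most 2 per direction and comparison are printed by identifier, and ENSMUST00000115245.7 lies outside these rules. Alternatives were DESeq2 1.42.0, limma 3.58.1 on log2(TPM + 0.5), other scalings and filters, a replicate block, added groups and leaving out each library. The scripts were tested on simulated data. Sums per gene, gene lists, markers and sequences were not used here, as no table at hand pairs the transcript identifiers with genes.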

Additional observations from a re-analysis of the deposited data

Results flagged for a closer look

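The levels of 16 transcripts differed between F1 and F2 by edgeR, and for 5 of them the values are given above. The edgeR adjusted p of the difference between F1 and F2 was 1.43e-05 for ENSMUST00000011895.13, 0.00798 for ENSMUST00000166114.1, 0.0318 for ENSMUST00000114965.1, 0.0319 for ENSMUST00000115245.7 and 0.0319 for the transcript of 2924 bases.

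Of 34 sets of 4 libraries examined for a library far from the others by Dixon's criterion, 3 held one, and at a 95% criterion some are found by chance. F2 1 stood apart at 71.7 CPM for ENSMUST00000115245.7, still below the F1 libraries. Control 1, the shallowest of the 7 libraries, had 44399 transcripts of at least 1 TPM, against 43885 to 43959 in the 3 other controls. In F2 1 transcripts under 1000 bases held 11.5% of the counts.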

How the results depend on the processing

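Against controls, the count of 0 called transcripts held under 6 of 16 alternatives (DESeq2 size factors, library totals, no filter, a mean of at least 1 CPM, the replicate block and leaving out control 3). It was 166 with DESeq2, 4 with limma on log2(TPM + 0.5), 1 with the F2 libraries in the fit and 1 with all 7 controls. Leaving out 1 library gave 0 to 3 calls: 1 without control 1, 2 without control 2, 3 without control 4, and 1 without F1 1, F1 2 or F1 3. ENSMUST00000166114.1, at an edgeR adjusted p of 0.0304 with the F2 libraries, was the call of that fit and 1 of the 4 of limma. The 4 transcripts given by identifier against controls kept their sign in all 16, and of these DESeq2 alone called them.

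Against F2, the 16 calls became 375 with DESeq2, 16 with no filter and 4 to 64 when 1 library was left out. With the replicate block 2 calls were left, both among the 16. The replicate numbers did not pair the libraries: deviations of same-numbered F1 and control libraries correlated at 0.004, −0.007 and 0.034 over transcripts, and those of same-numbered F1 and F2 libraries at −0.006, −0.010 and 0.024. ENSMUST00000011895.13 was called in all 10 alternatives, ENSMUST00000166114.1 in 9 (edgeR adjusted p = 0.168 with the block), ENSMUST00000114965.1 and ENSMUST00000115245.7 in 4 each, and the transcript of 2924 bases in 3. The cause was not tested.

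Counts of transcripts near 0 depended on the thresholds and on each library, which were varied after seeing the data. The 13 near 0 in F1 became 8 and the 25 near 0 in controls became 21 with a limit of under 1 count, 4 and 9 with at least 20 counts, and 30 to 62 and 53 to 80 without 1 library. Under 1 CPM intervals were wide, and the part of depth in this was not tested. Analyses of sums per gene and of gene lists were not run.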
